A study of Homo sapiens with 5 samples.

Results

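Close last exon pairs, chosen by measured reads, site class and distance, are genes whose most used poly(A) sites stand next to each other at the end of the transcript. For each gene, the 2 sites with most reads summed over all libraries were taken. A minimum average of 20 reads per library for the pair, and of 5 for either site, was met by 5869 genes. In 1075 of them both sites were listed in the last exon with positions less than 250 nt apart, and these 1075 pairs are described here. The summed reads, the site class and the distance chose the pairs, so these values are described and not tested. A site or a pair could pass the read minimum through 1 genotype only, and 20 of the 1075 pairs had a site with no read in at least 1 library.

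A poly(A) site is the place where a new transcript is cut and given its poly(A) tail. Many human genes have several such sites, and use of an upstream (proximal) site gives a shorter 3′ end than use of the downstream (distal) one. Cleavage factor Im (CFIm) helps to select sites: NUDT21 (CFIm25) binds RNA as a dimer and pairs with CFIm68 (gene CPSF6) or CFIm59 (gene CPSF7), whose arginine and serine rich domains contact other parts of the cleavage machinery. Loss of CFIm68 is known for wide shifts to proximal sites in human cells. When both sites lie close together in 1 last exon, the transcripts share their coding sequence and most of their 3′ untranslated region.

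All libraries were made from HEK293T, a line of human embryonic kidney origin with the SV40 large T antigen. The libraries came from 2 CFIm68 knockout (KO) cell lines, 2 CFIm59 KO cell lines and 1 wild type control, with the knockouts made by CRISPR/Cas9 and no other treatment or time labelled. The labels call the lines of 1 genotype different cell lines and do not say whether each is a clone, so the spread between them is that between 2 lines. The single control carries no replicate error of its own and was assumed to vary like the KO lines. Poly(A) site sequencing reads the junction of a transcript's 3′ end and its tail, so a site's read count measures its use in the bulk RNA; there, fewer cells using a site and fewer transcripts per cell cannot be told apart. The table deposited by the authors held unnormalised counts for each site, with 2727728 and 2078376 reads in the CFIm68 KO lines, 1673687 and 2585923 in the CFIm59 KO lines, and 2924266 in the control.

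CPSF6 was at 48.0 and 45.7 CPM (reads of a gene scaled to library size) in the CFIm68 KO lines, 141 and 143 CPM in the CFIm59 KO lines, and 120 CPM in the control (log2 change -1.35 ± 0.25 SE in the CFIm68 KO, adjusted p = 0.000512). CPSF7 was at 68.4 and 55.5 CPM in the CFIm59 KO lines and 59.8 CPM in the control, so the reads at its 3′ end do not check the CFIm59 KO label. All 10 marker genes listed for HEK293T were at 1 CPM or more in every library, with sums of 362 and 473 CPM in the CFIm68 KO lines, 439 and 439 CPM in the CFIm59 KO lines, and 546 CPM in the control. The summed markers of blood, fibroblast and endothelial cells lay between 0.00 and 19.1 CPM, with HBB, COL1A2 and PECAM1 at 0 in all libraries. Those of epithelium lay between 9.77 and 56.4 CPM, with KRT5 and KRT14 at 0 in all.

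The sites of the 1075 pairs were at least 41 nt apart, with a median of 117 nt and quartiles at 77 and 173 nt. The pair held a median of 87.4% of its gene's reads, and over 90% in 481 genes. Read depth differed widely, with a median of 494 reads per pair over the 5 libraries, a minimum of 101 and a maximum of 51739. The proximal site had more reads than the distal one in 486 of the 1075. In the control the 95% Wilson interval of a pair's proximal share had a median width of 14.2 percentage points, which covers counting error only. The genes with most reads were ribosomal: RPL37A, RPL26, RPS27A, RPL36, RPL15 and RPL19.

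Just inside the 250 nt limit, the 5 genes CRYZL1, DSTYK, GFI1, MIOS and PHF23 had control proximal shares between 12.5% and 83.5%. At 250 nt, just outside, the 5 genes CNN3, PLAG1, PSAP, SOD1 and TTLL5 had control shares between 54.6% and 78.9%.

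The median proximal share over the 1075 pairs was 48.2% and 45.6% in the CFIm68 KO lines, 43.1% and 42.4% in the CFIm59 KO lines, and 42.9% in the control. The corresponding medians over all 5869 tested pairs were 50% and 47.1%, 28.6% and 29.2%, and 34.4%, in that order. With all reads of the 1075 pairs pooled, the proximal sites took 55.0% and 53.8% of reads in the CFIm68 KO lines, 54.6% and 54.6% in the CFIm59 KO lines, and 55.0% in the control.

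The first comparison asked how loss of CFIm68 changed the choice between close sites. Of the 1075 pairs, 49 shifted to proximal and 44 shifted to distal in the CFIm68 KO lines against the control (edgeR quasi-likelihood test, Benjamini-Hochberg adjusted over all 5869 pairs, threshold 0.05). These are 4.56% and 4.09% of the close pairs, and the same test called 25.0% of all tested pairs to proximal and 3.1% to distal. The proximal share was higher by a median of 19.6 points among the 49 and its median difference was -14.5 points among the 44, and in all 93 both KO lines lay on the same side of the control. Both lines did so in 77.8% of all 1075 close pairs, called or not. Over all 1075 the median difference was 1.08 points, against 5.16 points over all tested pairs. The KO mean lay within 10 points of the control in 70.0% of close pairs and in 53.7% of all tested pairs. Between the 2 CFIm68 KO lines themselves, the share of a close pair differed by a median of 4.08 points.

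Pairs shifted in both directions in 4 of the 5 distance classes below 250 nt. Among pairs under 50 nt apart, 0 shifted to proximal and 1 to distal of 50. Of 387 pairs at 50 to under 100 nt, 12 shifted to proximal and 13 to distal; of 266 at 100 to under 150 nt, 13 and 7 did so. The counts were 12 to proximal and 14 to distal of 196 pairs at 150 to under 200 nt, and 12 and 9 of 176 pairs at 200 nt or more. Among last exon pairs 250 to under 1000 nt apart, 28.6% shifted to proximal and 2.24% to distal, and at 1000 to under 4000 nt 45.6% and 1.67% did. At 4000 nt or more the shares were 27.2% and 4.47%, so calls to proximal did not rise steadily with distance. Across the 1075, Spearman's rho between distance and the difference in points was 0.0868, a description over genes measured in the same libraries.

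**Figure D1:**
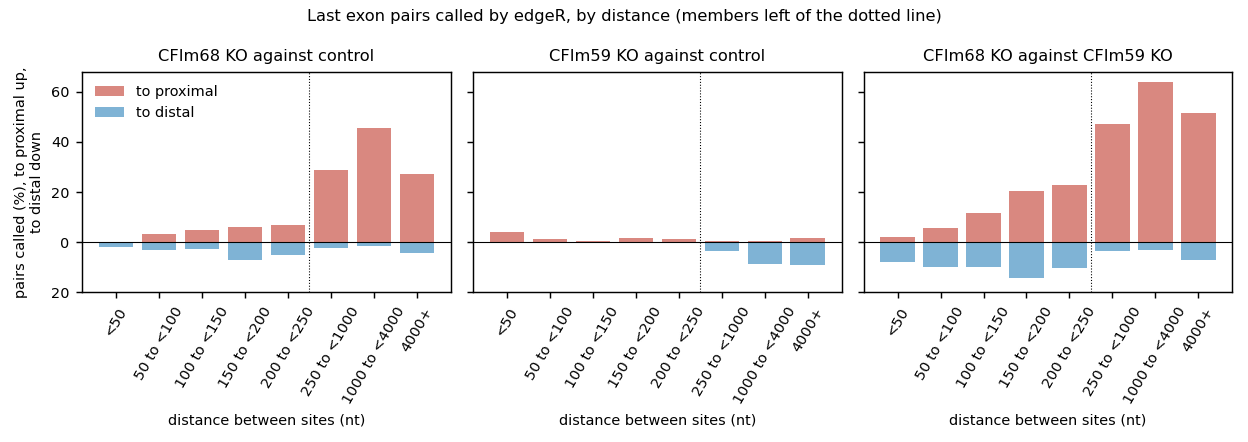
Share of last exon pairs called (percent, to proximal above 0 and to distal below it) by distance between the sites (nt), for the 3 contrasts; the dotted line marks 250 nt, with the 1075 close pairs to its left. In the CFIm68 KO against control, calls to proximal stay below 7% left of the line and reach 45.6% at 1000 to under 4000 nt.

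The counts were then split by read depth. Among the 172 close pairs with an average of 300 or more reads per library, 8 shifted to proximal and 18 to distal. Among the 378 other last exon pairs of that depth, 36.2% shifted to proximal and 3.17% to distal. At 20 to under 50 reads, 13 of 267 close pairs shifted to proximal and 1 to distal. Among the 1091 other last exon pairs of that depth, 27.3% shifted to proximal and 2.93% to distal.

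**Figure D2:**
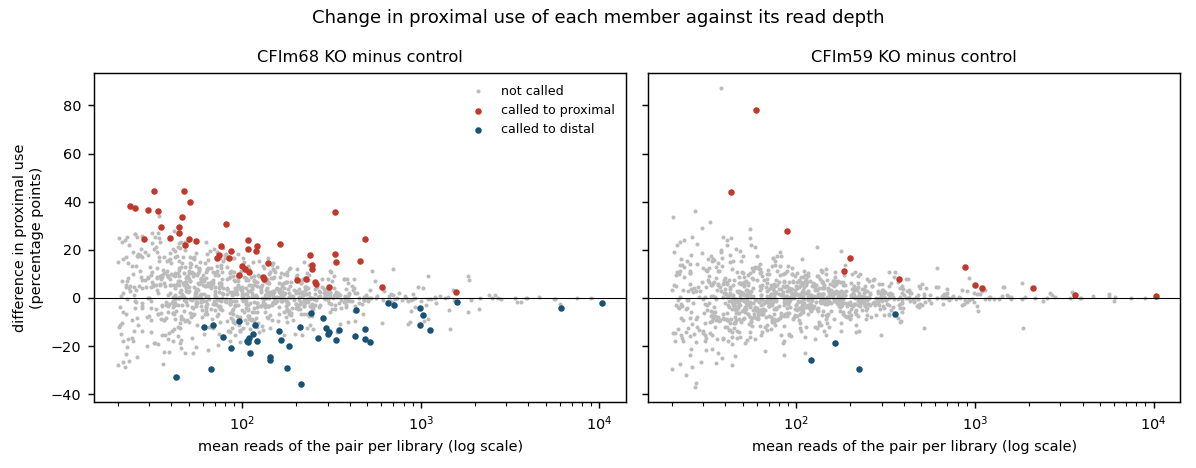
Difference in proximal share (percentage points, KO mean minus control) of each of the 1075 close pairs against its mean reads per library (log scale), with pairs called to proximal in red, to distal in blue and the rest in grey. In the CFIm68 KO 49 red and 44 blue points lie above and below 0; in the CFIm59 KO 12 red and 4 blue points are called.

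HOXA4, a homeobox transcription factor (hg19 chr7:27168144-27168371, minus strand), used its proximal site for 60 of 95 and 22 of 43 reads in the CFIm68 KO lines, 6 of 30 and 6 of 35 in the CFIm59 KO lines, and 9 of 52 in the control. Its proximal share was thus 57.2% ± 8.48 in the CFIm68 KO (SD, n = 2) and 17.3% in the control, with a log2 change of the proximal to distal ratio of 2.74 ± 0.63 (SE, adjusted p = 0.000542). Both CFIm68 KO lines were above all other libraries. SON, a nuclear speckle protein needed for splicing (chr21:34949651-34949784, plus strand), had proximal shares of 54.4% and 56.0% in the CFIm68 KO lines, 30.3% and 30.3% in the CFIm59 KO lines, and 19.4% in the control. Its log2 change was 2.35 ± 0.40 in the CFIm68 KO (adjusted p = 5.39e-06) and 0.86 ± 0.40 in the CFIm59 KO (adjusted p = 0.224). H3F3A, which encodes a replication-independent histone H3 (chr1:226259545-226259702, plus strand), had shares of 58.5% and 54.4%, 36.7% and 37.5%, and 32.0% in CFIm68 KO, CFIm59 KO and control libraries in turn (log2 change 1.47 ± 0.36 in the CFIm68 KO, adjusted p = 0.00133). H3F3A has processed copies elsewhere in the genome, so its counts are uncertain where reads could align to several of them. TAB2, an adaptor of the TAK1 kinase, was at 59.3% and 62.3%, 39.3% and 39.6%, and 30.1%, with its sites 90 nt apart.

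The deubiquitinases USP34 and USP14 and the transcription factor ZNF24 also shifted to proximal. USP34 was at 79.0% and 70.0% in the CFIm68 KO lines, 51.6% and 51.6% in the CFIm59 KO lines, and 54.9% in the control. USP14, which acts at the proteasome, was at 54.9% and 47.6%, 48.6% and 41.9%, and 29.7%, so the CFIm59 KO lines overlapped the CFIm68 KO lines. ZNF24 was at 60.2% and 45.3%, 17.6% and 25.9%, and 30.5%, with the CFIm59 KO lines below the control. SUDS3, a subunit of the SIN3 histone deacetylase complex with its sites 248 nt apart, was at 36.2% and 25.9%, 16.1% and 14.1%, and 6.52%. BLOC1S2, a subunit of a complex that forms lysosome-related organelles, ZMYM2, a zinc finger protein, TUB, the tubby protein, and SPG20, which encodes spartin, completed the 12 largest, with KO means between 31.3% and 45.3% and control values between 10.8% and 21.7%. Of these 12, HOXA4, SON and H3F3A were also called by DESeq2, and the other 9 were not.

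WNK1, a kinase that regulates ion transport (chr12:1018567-1018804, plus strand), used its proximal site for 153 of 369 and 88 of 245 reads in the CFIm68 KO lines, 83 of 120 and 107 of 144 in the CFIm59 KO lines, and 137 of 184 in the control. Its share was 38.7% ± 3.92 in the CFIm68 KO and 74.5% in the control (95% Wilson interval 67.7% to 80.2%), a log2 change of -2.20 ± 0.42 (adjusted p = 4.68e-05). LRPPRC, which stabilises mitochondrial mRNAs (chr2:44115406-44115639, minus strand), was at 38.0% and 38.8% in the CFIm68 KO lines, 62.5% and 72.0% in the CFIm59 KO lines, and 67.5% in the control (log2 change -1.74 ± 0.40, adjusted p = 0.000514). In both genes the CFIm68 KO lines were below the other 3 libraries, and the CFIm59 KO lines lay near the control. FIBP, which binds a fibroblast growth factor inside the cell (chr11:65651211-65651392, minus strand), was at 67.3% and 61.6%, 96.5% and 93.0%, and 90.4% (log2 change -2.35 ± 0.55 in the CFIm68 KO, adjusted p = 0.000631). RAB11A, a GTPase of recycling endosomes (chr15:66180260-66180421, plus strand), was at 16.3% and 15.9%, 39.6% and 39.5%, and 33.5% (log2 change -1.39 ± 0.38, adjusted p = 0.004). The lines of each genotype lay close together in RAB11A, and the CFIm68 KO lines were below the other libraries.

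RPF2, a ribosome biogenesis factor, was at 67.2% and 61.7% in the CFIm68 KO lines, 90.2% and 89.2% in the CFIm59 KO lines, and 84.3% in the control. MRPS22, a subunit of the small mitochondrial ribosome, was at 45.9% and 33.6%, 72.7% and 74.4%, and 62.5%. PCM1, a protein of centriolar satellites, was at 58.2% and 53.9%, 91.0% and 90.4%, and 74.6%, with the genotypes on opposite sides of the control. AMZ2, a metallopeptidase gene, and its pseudogene AMZ2P1 both had sites 80 nt apart and both shifted to distal; as near-identical copies they can share reads, and their counts are uncertain. AMZ2 was at 34.1% and 29.3%, 46.5% and 53.9%, and 49.7%, and AMZ2P1 at 8.62% and 5.63%, 19.2% and 22.2%, and 27.9%. CNOT10, a subunit of the CCR4-NOT deadenylase, CDKN2A, the cell cycle inhibitor gene, and RBM28, a nucleolar RNA-binding protein, had CFIm68 KO means of 35.0%, 49% and 24.3% against control values of 59.5%, 67.3% and 42.2%. Of these 12, WNK1, LRPPRC, FIBP and AMZ2P1 were also called by DESeq2, and the other 8 were not.

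**Figure D3:**
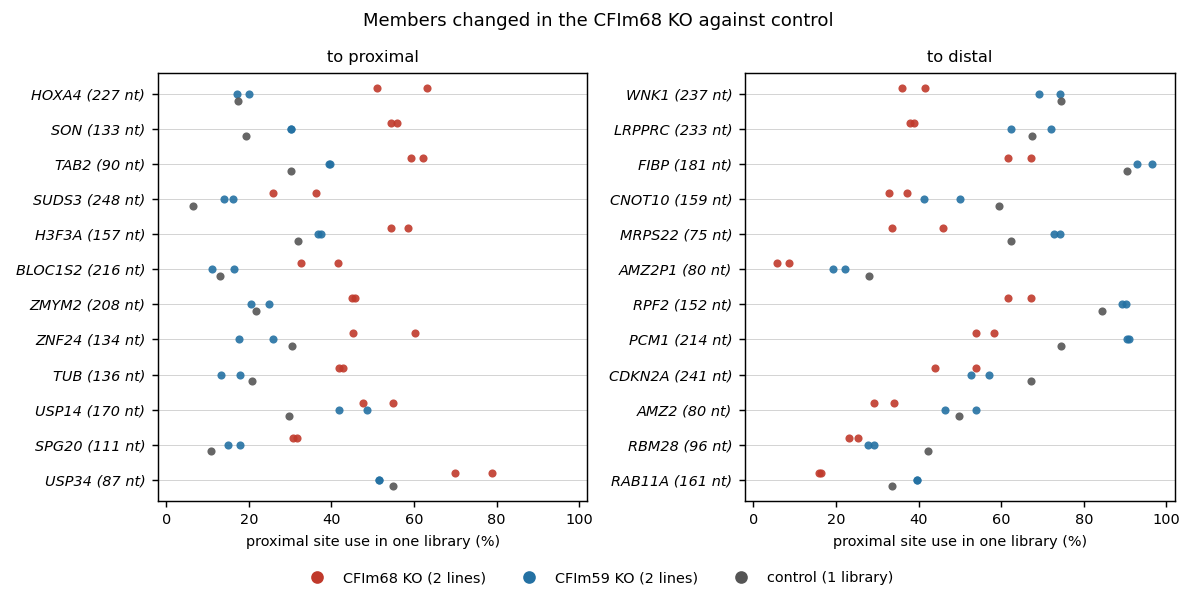
Proximal share (percent) of the 12 close pairs with the largest shift to proximal (left) and to distal (right) in the CFIm68 KO, 1 dot per library, with the distance between the sites beside each gene. HOXA4 shows red dots at 63.2% and 51.2% against 17.3% in the control, and WNK1 at 41.5% and 35.9% against 74.5%.

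DESeq2 on the same pairs called 5 close pairs to proximal and 7 to distal in this contrast, and all 12 were among the 93. Without CFIm68 KO line 1 the counts were 32 to proximal and 53 to distal; SUDS3 (adjusted p = 0.0595), ZMYM2 (0.0982), ZNF24 (0.0994), USP14 (0.144), USP34 (0.147) and RBM28 (0.105) then lost their call. Without line 2, ZMYM2 (adjusted p = 0.0563), MRPS22 (0.108), PCM1 (0.110), CDKN2A (0.0851), AMZ2 (0.116) and RBM28 (0.0507) did; without CFIm59 KO lines 1 and 2 in turn, which add to the shared spread, AMZ2 (0.0608 and 0.0593) and ZMYM2 (0.0550 and 0.0514) did.

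The second comparison set the CFIm59 KO against the same control library. Here 12 of the 1075 pairs shifted to proximal and 4 shifted to distal by the same test, 1.12% and 0.372% of them, and all tested pairs gave 0.988% to proximal and 5.06% to distal. The median difference over the 1075 was 0.0277 points, against -2.42 points over all tested pairs. The KO mean lay within 10 points of the control in 78.9% of close pairs and in 68.2% of all tested pairs. The 2 CFIm59 KO lines differed by a median of 4.10 points.

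SGSM3, which encodes a protein with a RAB GTPase-activating domain (chr22:40806107-40806288, plus strand), had the largest difference among the pairs called. It had 46 of 54 and 99 of 122 reads at the proximal site in the CFIm59 KO lines, 4 of 42 and 0 of 37 in the CFIm68 KO lines, and 2 of 40 in the control. The proximal share was 83.2% ± 2.85 in the CFIm59 KO (SD, n = 2) and 5.00% in the control (95% Wilson interval 1.38% to 16.5%), with a log2 change of 6.39 ± 0.80 (adjusted p = 3.03e-07). The count of 0 in CFIm68 KO line 2 allows a share of up to 8.11%. Both CFIm59 KO lines were above all other libraries, and the CFIm68 KO lines overlapped the control. The proximal site met the minimum average of 5 reads per library only through the CFIm59 KO lines, where it was high. Its p-value is therefore not independent of the choice of the pair. The distal site had 8 and 23 reads in the CFIm59 KO lines, 38 and 37 in the CFIm68 KO lines, and 38 in the control. SGSM3 expression was also higher in the CFIm59 KO, at 33.0 and 50.5 CPM, with 14.6 and 16.9 CPM in the CFIm68 KO lines and 15.0 CPM in the control (log2 change 1.49 ± 0.35, adjusted p = 0.00198). The largest difference of all in this contrast belonged to RP11-527N22.1, a gene outside the rule for named genes that was picked out after its values were seen: its pair had 1 and 0 reads in the CFIm59 KO lines, 118 and 30 in the CFIm68 KO lines, and 39 in the control. With 1 read in the CFIm59 KO its share there has no weight, and it did not pass the test.

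The other named pairs shifted to proximal in the CFIm59 KO had smaller differences and more reads. SNHG5, a small nucleolar RNA host gene, used its proximal site for 95.1% and 94.8% of reads in the CFIm59 KO lines, 78.3% and 74.7% in the CFIm68 KO lines, and 82.0% in the control (log2 change 2.04 ± 0.39 in the CFIm59 KO, adjusted p = 0.000635). MCM7, a subunit of the replicative helicase with its sites 48 nt apart, was at 98.7% and 98.6%, 94.0% and 94.2%, and 94.5% (log2 change 2.07 ± 0.46, adjusted p = 0.0034). In both genes every CFIm59 KO line was above every other library. ELP2, an Elongator subunit, TFRC, the transferrin receptor, NSA2, a ribosome biogenesis factor, PSMA7, a proteasome subunit, and COX7C, a subunit of cytochrome c oxidase, rose by 1.30 to 1.88 on the log2 scale. TFRC stood at 14.4% and 18.7% in the CFIm59 KO lines, 8.14% and 11.9% in the CFIm68 KO lines, and 5.17% in the control.

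NUP54, TMEM179B and MRPL34 were among the 4 pairs shifted to distal in the CFIm59 KO. NUP54, a nuclear pore protein (chr4:77035817-77036021, minus strand), was at 17.8% and 11.2% in the CFIm59 KO lines, 36.8% and 36.4% in the CFIm68 KO lines, and 40.4% in the control (log2 change -2.03 ± 0.49, adjusted p = 0.00626). TMEM179B, a transmembrane protein, was at 65.5% and 76.8%, 90.5% and 86.8%, and 90.1%. MRPL34, a subunit of the large mitochondrial ribosome, was at 3.83% and 2.24%, 3.31% and 7.44%, and 9.62%, with the KO lines of both genotypes below the control.

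**Figure D4:**
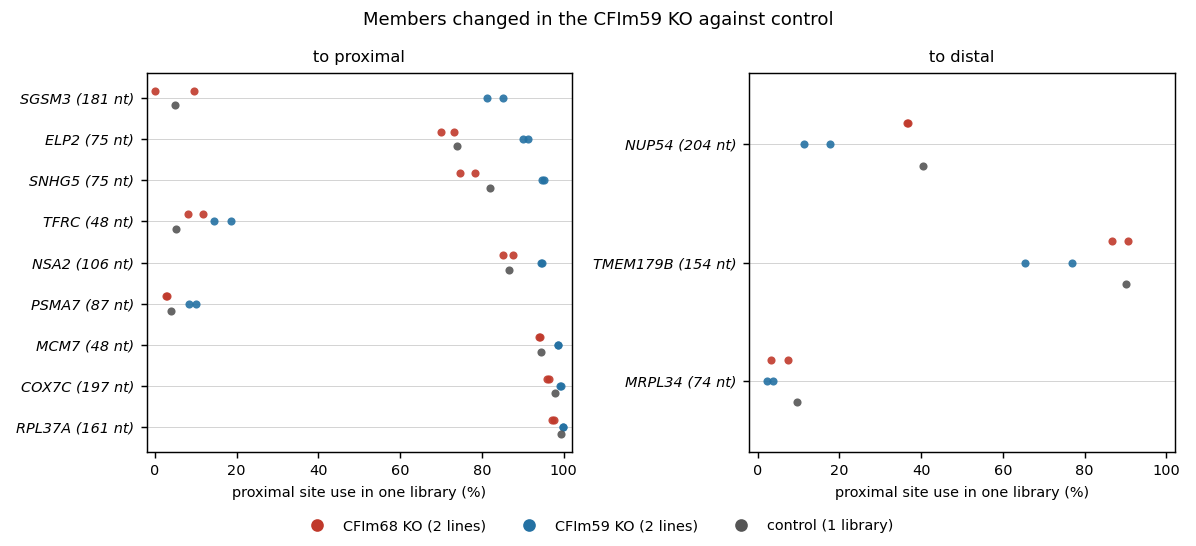
Proximal share (percent) of the close pairs shifted to proximal (left, 9 pairs) and to distal (right, 3 pairs) in the CFIm59 KO, 1 dot per library, with the distance between the sites beside each gene. SGSM3 shows blue dots at 85.2% and 81.1% against 5.00% in the control, and NUP54 at 17.8% and 11.2% against 40.4%.

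For the CFIm59 KO, DESeq2 called 3 close pairs to proximal and 1 to distal, with SGSM3, SNHG5 and RPL37A to proximal. Without CFIm59 KO line 1 the counts were 7 and 4, and without line 2 they were 7 and 2; ELP2, TFRC, NSA2, PSMA7 and COX7C lost their call in both cases (adjusted p between 0.0532 and 0.286). TMEM179B lost it without line 1 (0.282), and NUP54 (0.146) and MRPL34 (0.291) without line 2. Without CFIm68 KO lines 1 and 2 in turn, 24 and 22 pairs passed to proximal and 7 and 7 to distal.

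The 2 knockouts share the control library, so their calls are set side by side and not correlated. RPL37A was the 1 close pair called in both, in opposite directions. This gene encodes a protein of the large ribosomal subunit (chr2:217366186-217366347, plus strand) and had the most reads of all close pairs. Its distal site, the difference between pair reads and proximal reads, was rare in every library: the proximal site had 12093 of 12386 and 8379 of 8631 reads in the CFIm68 KO lines, 7110 of 7115 and 11270 of 11286 in the CFIm59 KO lines, and 12234 of 12321 in the control. The shares were 97.6% and 97.1%, 99.9% and 99.9%, and 99.3%. The log2 change of the ratio was -1.92 ± 0.43 in the CFIm68 KO (adjusted p = 0.000464) and 2.66 ± 0.54 in the CFIm59 KO (adjusted p = 0.00124). Ribosomal protein genes have many processed copies, so its counts are uncertain.

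Set directly against each other, the 2 knockouts differed in more close pairs, and again in both directions. In the CFIm68 KO lines 134 of the 1075 pairs were higher in proximal use and 116 lower than in the CFIm59 KO lines (12.5% and 10.8%); all tested pairs gave 40.5% and 6.08%. The lines of the 2 genotypes did not overlap in any of these 250 pairs, and they did not overlap in 61.0% of all 1075 close pairs. Pairs chosen by the test seldom overlap, so this adds no support to the calls. The median difference was 1.17 points over the close pairs and 8.13 points over all tested pairs. By distance, 1, 22, 31, 40 and 40 pairs were higher and 4, 39, 27, 28 and 18 lower in the CFIm68 KO, in the same 5 distance classes. Above 300 reads per library, 18 of 172 close pairs were higher and 46 lower (10.5% and 26.7%), and of the 378 other last exon pairs of that depth 56.6% were higher and 8.2% lower.

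Several genes passed the test only in this direct contrast. GPD2, the mitochondrial glycerol phosphate dehydrogenase with its sites 248 nt apart, was at 89.5% and 97.0% in the CFIm68 KO lines and 54.1% and 66.7% in the CFIm59 KO lines, with 79.0% in the control (log2 difference 3.01 ± 0.69, adjusted p = 0.000275). MED28, a Mediator subunit, was at 74.7% and 69.3%, 44.7% and 35.7%, and 63.2% (log2 difference 1.99 ± 0.41, adjusted p = 5.79e-05). ADK, adenosine kinase, was at 37.2% and 34.2%, 72.0% and 65.2%, and 47.5% (log2 difference -1.92 ± 0.39, adjusted p = 5.24e-05). In each of these 3 genes the control lay between the genotypes. GCFC2 had a difference of -3.03 ± 0.52 (adjusted p = 2.79e-06), but 1 of its sites was listed under more than 1 gene or class, with the reads kept under the first. DLD, a subunit of mitochondrial dehydrogenase complexes, was at 66.8% and 71.8%, 43.1% and 45.4%, and 50.9%, and it was also called against the control (log2 change 1.13 ± 0.37, adjusted p = 0.0179), though not by DESeq2. PFDN4, a prefoldin subunit, was at 11.0% and 5.17%, 36.4% and 32.0%, and 25.5%, and was also called against the control (log2 change -1.88 ± 0.46, adjusted p = 0.00122). PCM1 (-2.90 ± 0.44), MRPS22 (-2.05 ± 0.42), MAT2B, a subunit of methionine adenosyltransferase (1.51 ± 0.36), TUB (2.04 ± 0.39) and ZNF24 (2.03 ± 0.43) were among the other pairs called here. HSD17B11, AHSA2 and KIF7 lost their call when CFIm59 KO line 2 (adjusted p = 0.187 and 0.173 for the first pair of genes) or line 1 (0.189 for KIF7, and 0.0599 without CFIm68 KO line 2) was left out. The count of pairs higher in the CFIm68 KO was 84 without CFIm68 KO line 1, and 84 and 78 without CFIm59 KO lines 1 and 2, and that of lower pairs was 70 without CFIm59 KO line 2. DESeq2 called 48 higher and 65 lower.

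Genes of the translation machinery and of oxidative phosphorylation were described by lists of gene symbols. Of 16 close pairs in cytosolic ribosomal protein genes, 0 shifted to proximal and 3 to distal in the CFIm68 KO, 2 and 0 in the CFIm59 KO, and 0 and 10 when the CFIm68 KO was set against the CFIm59 KO. Over all 55 tested pairs of this list, at any distance, the counts were 2 and 6, 5 and 1, and 7 and 19. The median difference of the 16 was -1.10 points in the CFIm68 KO, 0.54 points in the CFIm59 KO and -1.76 points between the knockouts. Over all close pairs those medians were 1.08, 0.0277 and 1.17 points. The median control share of the 16 was 94.6%. Of all 110 close pairs at 90% or more in the control, 2 shifted to proximal and 13 to distal in the CFIm68 KO. Between the knockouts 6 of the 110 were higher and 29 lower. Of 153 close pairs under 10% in the control, 17 and 0 shifted in the CFIm68 KO. The control library both set these classes and served as the comparison. RPL36 was at 92.8% and 90.5% in the CFIm68 KO lines, 96.7% and 96.5% in the CFIm59 KO lines, and 96.0% in the control (log2 change -1.12 ± 0.39 in the CFIm68 KO, adjusted p = 0.026; 0.137 by DESeq2, 0.0554 with no read minimum and 0.0552 without CFIm59 KO line 1). RPL19 used its proximal site for 0.816% and 0.274%, 2.4% and 2.89%, and 1.12% of reads, and it differed between the knockouts (log2 difference -2.31 ± 0.40, adjusted p = 3.78e-06). RPS27A, RPL26 and RPL15 passed in none of the 3 contrasts, with adjusted p between 0.464 and 0.881. These genes also have processed copies, and their counts are uncertain in the same way.

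Of 17 pairs in mitochondrial ribosomal protein genes, 0 shifted to proximal and 3 to distal in the CFIm68 KO, and 0 and 1 in the CFIm59 KO; over all 42 tested pairs of the list 5 and 4, and 1 and 1, did. Of 11 in oxidative phosphorylation genes, 0 and 3 shifted in the CFIm68 KO and 1 and 0 in the CFIm59 KO, and between the knockouts 0 were higher and 5 lower. Over all 32 tested pairs of this list the counts were 2 and 5, 1 and 2, and 5 and 8. The 11 close pairs had a median proximal share of 80.1% in the control. NDUFC2, a subunit of respiratory complex I, was at 93.8% and 94.0% in the CFIm68 KO lines, 97.0% and 95.5% in the CFIm59 KO lines, and 98.0% in the control (log2 change -1.65 ± 0.46 in the CFIm68 KO, adjusted p = 0.00478; 0.0559 by DESeq2). COX7C was at 96.5% and 95.9%, 99.2% and 99.3%, and 98.0%, with adjusted p = 0.0831 in the CFIm68 KO and 0.0418 in the CFIm59 KO. Of 10 pairs in translation factor genes, 2 shifted to proximal and 1 to distal in the CFIm68 KO and none in the CFIm59 KO; over all 41 tested pairs 8 and 2, and 0 and 1, did. EIF4A2, an RNA helicase of translation initiation, was at 29.6% and 34.6%, 16.8% and 14.3%, and 16.9% (log2 change 1.20 ± 0.38 in the CFIm68 KO, adjusted p = 0.0121; 0.144 by DESeq2 and 0.0594 with no read minimum). EIF3C, an initiation factor subunit, was at 97.1% and 95.4%, 98.6% and 99.8%, and 99.3% (log2 change -2.33 ± 0.66, adjusted p = 0.00555; 0.0741 by DESeq2), and it can share reads with its copy EIF3CL.

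Of 5 proteasome pairs, 1 shifted to proximal and 1 to distal in the CFIm68 KO, and 1 to proximal in the CFIm59 KO; over all 22 tested pairs 3 and 1, and 1 and 2, did. PSMC2, a proteasome ATPase with its sites 61 nt apart, was at 88.1% and 86.3%, 94.9% and 94.0%, and 95.7% (log2 change -1.68 ± 0.49 in the CFIm68 KO, adjusted p = 0.0066; 0.0752 by DESeq2). Of 9 hnRNP pairs, against 9 to proximal and 1 to distal of all 22 tested, HNRNPD was the 1 called against the control, to distal, at 8.82% and 5.75% in the CFIm68 KO lines, 19.0% and 13.1% in the CFIm59 KO lines, and 14.5% in the control (log2 change -1.13 ± 0.39, adjusted p = 0.0231; 0.203 by DESeq2, 0.0832 with no read minimum and 0.095 without CFIm68 KO line 2). Of 13 spliceosome pairs 0 were called against the control in either knockout, and between the knockouts 2 were higher in the CFIm68 KO and 2 lower. Over all 27 tested pairs of that list, 4 shifted to proximal and 1 to distal in the CFIm68 KO. The counts were 1 and 2 in the CFIm59 KO, and between the knockouts 9 were higher and 4 lower. Of 20 pairs in ZNF zinc finger genes, 1 (ZNF24) shifted to proximal in the CFIm68 KO and 0 in the CFIm59 KO. Over all 109 tested ZNF pairs, 16 shifted to proximal and 4 to distal in the CFIm68 KO. In the CFIm59 KO 0 and 4 did. Of 7 RAB and ARF GTPases RAB11A was the 1 called against the control, and of 10 solute carriers, 10 heat shock and chaperonin genes and 4 tubulin and actin genes none were called against the control. Between the knockouts 2 of the GTPases were higher in the CFIm68 KO and 1 lower, 0 and 2 of the solute carriers, and 1 and 2 of the heat shock and chaperonin genes. Over all tested pairs against the control, the CFIm68 KO shifted 16 of 38 GTPases, 20 of 67 solute carriers and 13 of 47 heat shock and chaperonin genes to proximal. It shifted 1, 2 and 1 of them to distal. The CFIm59 KO shifted 0, 1 and 0 of them to proximal and 1, 0 and 6 to distal. Between the knockouts 22, 26 and 20 of them were higher in the CFIm68 KO and 1, 6 and 4 lower. Of all 18 tubulin and actin genes, the CFIm68 KO shifted 1 to proximal and 0 to distal, and the CFIm59 KO 0 and 1. Between the knockouts 4 of these 18 were higher in the CFIm68 KO and 1 lower. Cleavage and polyadenylation factors held 2 close pairs, SR proteins 2, ubiquitin-conjugating enzymes 4 and glycolysis 1, and none of these were called in any contrast. Over all tested pairs of these lists in turn, the CFIm68 KO shifted 5 of 17, 5 of 12, 13 of 27 and 0 of 6 to proximal. It shifted 0 of each list to distal. The CFIm59 KO shifted 0, 0, 0 and 1 to proximal and 6, 1, 4 and 0 to distal. Between the knockouts 9, 8, 14 and 3 were higher in the CFIm68 KO and 1, 1, 0 and 1 lower. CPSF7, itself a close pair with sites 82 nt apart, had shares of 82.0% and 84.1%, 80.2% and 91.7%, and 82.9%.

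Gene expression was measured as all reads of a gene, in CPM after scaling by trimmed mean of M values. In the CFIm68 KO 13 of the 1075 genes rose and 37 fell, 1.21% and 3.44%, with 1.59% and 2.03% of all 14636 genes tested. In the CFIm59 KO 55 rose and 133 fell, 5.12% and 12.4%, with 6.98% and 6.87% of all genes. Of the 172 close pairs with 300 or more reads per library, 39 fell in the CFIm59 KO, and of the 378 other last exon pairs of that depth 70 did. Between the knockouts 124 were higher in the CFIm68 KO and 113 lower, with 9.46% and 10.3% of all genes. None of the 49 genes whose pair shifted to proximal in the CFIm68 KO passed the expression test. Of the 44 shifted to distal, 1 rose and 5 fell. With 1.21% and 3.44% called over all 1075, few calls would arise among 49 genes. The pairs of the 49 had a median of 519 reads over the libraries, and those of the 44 had 1139. Without CFIm59 KO line 1, 32 genes rose and 70 fell in the CFIm59 KO, and without line 2, 82 fell; between the knockouts 75 and 63 were then higher, and 74 lower without line 2. DESeq2 called 4 higher and 12 lower in the CFIm68 KO, 16 and 43 in the CFIm59 KO, and 49 and 60 between the knockouts.

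HNRNPLL, an hnRNP-like splicing regulator, fell to 6.95 and 10.2 CPM in the CFIm68 KO lines, with 46.8 and 41.0 CPM in the CFIm59 KO lines and 46.6 CPM in the control (log2 change -2.46 ± 0.33, adjusted p = 1.42e-06). RPL22L1, a paralogue of a ribosomal protein, was at 97.0 and 57.3 CPM, 228 and 214 CPM, and 316 CPM (log2 change -2.03 ± 0.25, adjusted p = 1.95e-07). EFNB1, the ligand ephrin B1, fell in the CFIm68 KO (-2.53 ± 0.35, adjusted p = 2.64e-06), as did TERF1, a telomere-binding protein, ATF3, a stress-induced transcription factor, and RBPJ, the transcription factor of Notch signalling. AGO2, the Argonaute protein of microRNA silencing, rose to 65.0 and 63.9 CPM in the CFIm68 KO lines, with 14.4 and 17.4 CPM in the CFIm59 KO lines and 18 CPM in the control (log2 change 1.83 ± 0.32, adjusted p = 0.000196). GFI1, a transcriptional repressor, rose to 35.4 and 38.2 CPM in the CFIm68 KO lines, with 7.81 and 8.28 CPM in the CFIm59 KO lines and 9.78 CPM in the control. The pair of AGO2 had 158 and 116, 9 and 19, and 31 reads in these libraries, and that of GFI1 96 and 81, 13 and 16, and 24. Both met the minimum average of 20 reads per library only through the CFIm68 KO, so these rises themselves made them close pairs. CPSF7, which encodes CFIm59, rose to 128 and 204 CPM in the CFIm68 KO lines (log2 change 1.47 ± 0.29, adjusted p = 0.000925).

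In the CFIm59 KO the largest rises were in SEPP1, which encodes selenoprotein P, and in BASP1, a membrane-attached signalling protein. SEPP1 was at 140.5 and 202 CPM in the CFIm59 KO lines, 69.8 and 16.0 CPM in the CFIm68 KO lines, and 6.39 CPM in the control (log2 change 4.74 ± 0.49 in the CFIm59 KO, adjusted p = 2.64e-10). It also rose in the CFIm68 KO (2.77 ± 0.50, adjusted p = 0.000433), but not without CFIm68 KO line 1 (adjusted p = 0.0953). BASP1 was at 66.6 and 78.3 CPM in the CFIm59 KO lines, 9.04 and 3.55 CPM in the CFIm68 KO lines, and 3.01 CPM in the control. EPCAM, an epithelial adhesion molecule, was at 48.0 and 10.4 CPM, 5.56 and 3.11 CPM, and 4.51 CPM, and its rise rested on CFIm59 KO line 1 (adjusted p = 0.00101, and 0.285 without it). The pair of BASP1 had 101 and 172 reads in the CFIm59 KO lines, 13 and 3 in the CFIm68 KO lines, and 4 in the control. That of EPCAM had 78 and 24, 14 and 5, and 11. Both met the minimum average of 20 reads per library only through the CFIm59 KO, so these rises themselves made them close pairs. AMOT, a regulator of Hippo signalling, fell to 51.0 and 35.6 CPM in the CFIm59 KO lines, with 219 and 434 CPM in the CFIm68 KO lines and 396 CPM in the control (log2 change -3.21 ± 0.28, adjusted p = 9.93e-13). SLC25A5, a mitochondrial ADP/ATP carrier, fell to 192 and 211 CPM in the CFIm59 KO lines, with 371 and 388 CPM in the CFIm68 KO lines and 707 CPM in the control. CTH, HMGN5, HSD17B11 and BCL2L13 fell as well, with log2 changes between -2.50 and -1.93. LAMP2, a lysosomal membrane protein, was at 266 and 197 CPM in the CFIm68 KO lines, 54.6 and 51.8 CPM in the CFIm59 KO lines, and 109 CPM in the control, a log2 difference of 2.12 ± 0.22 between the knockouts (adjusted p = 1.42e-10).

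The same genes also held reads outside the close pair, at sites further down or up the gene. Reads downstream of the pair made up 1.86% and 2.00% of all reads of the 1075 genes in the CFIm68 KO lines, 4.15% and 3.86% in the CFIm59 KO lines, and 2.70% in the control. Reads upstream of it made up 6.36% and 5.51%, 4.70% and 4.25%, and 4.29%. Over all 5869 tested genes the shares were 2.12% and 2.00%, 3.69% and 3.52%, and 2.69% downstream, and 7.15% and 6.14%, 4.94% and 4.49%, and 4.66% upstream. The genotypes did not overlap in the downstream share, and both CFIm68 KO lines were above the other libraries in the upstream share. These reads were then tested against the reads of the pair in each gene with 25 or more of them over the libraries, by a test added after the data had been seen.

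**Figure D5:**
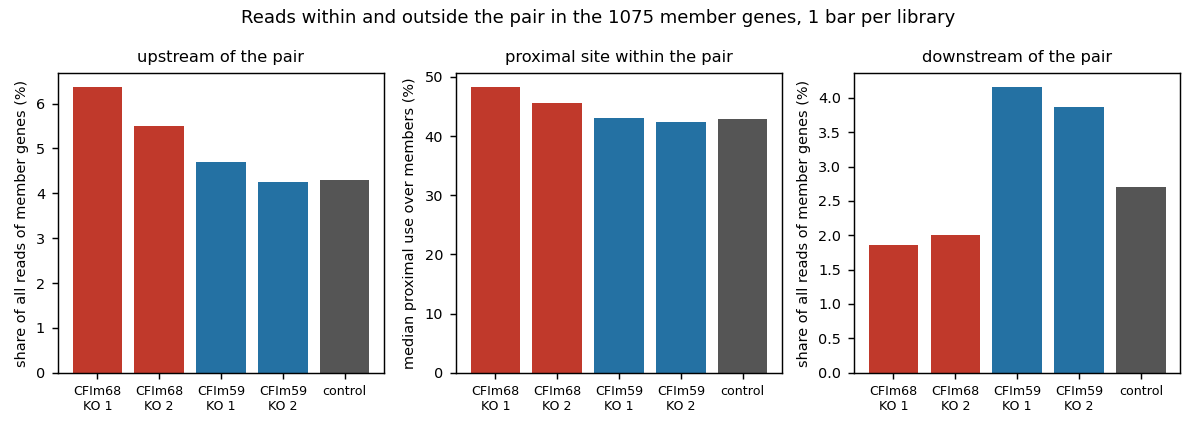
Share of all reads of the 1075 genes that lie upstream of the close pair (left, percent) or downstream of it (right, percent), and median proximal share within the pair (middle, percent), 1 bar per library. Downstream reads are at 1.86% and 2.00% in the CFIm68 KO lines, 4.15% and 3.86% in the CFIm59 KO lines and 2.70% in the control, and the medians within the pair lie between 42.4% and 48.2%.

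Of 360 close pairs that could be tested, downstream reads rose in 8 and fell in 91 in the CFIm68 KO against the control (2.22% and 25.3%), and over all 1541 tested genes 2.73% rose and 25.3% fell. In the CFIm59 KO they rose in 64 and fell in 2 (17.8% and 0.556%), with 9.73% and 0.584% over all tested genes. Between the knockouts 15 were higher and 189 lower in the CFIm68 KO, with 4.87% and 49.3% over all. The 64 rises in the CFIm59 KO were not called by DESeq2 in any gene, and 25 to 35 were called without 1 of the KO lines. In the CFIm68 KO, DESeq2 called 1 rise and 46 falls, 53 fell without CFIm68 KO line 1, and 2 rose without line 2. The example genes below are those with the largest changes among genes with many reads outside the pair, and were chosen after their values were seen.

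CAND1, a regulator of cullin ubiquitin ligases, had 18 and 6 reads downstream of its close pair in the CFIm68 KO lines, 144 and 215 in the CFIm59 KO lines, and 171 in the control. This was 4.21% and 2.09%, 63.7% and 67.4%, and 41.5% of the reads of the pair and downstream together (log2 change -4.36 ± 0.38 in the CFIm68 KO, adjusted p = 2.1e-08). PNN, a splicing protein of nuclear speckles and desmosomes, had 15 and 13, 134 and 192, and 137 reads there (log2 change -3.44 ± 0.36 in the CFIm68 KO, adjusted p = 2.22e-07; 1.07 ± 0.29 in the CFIm59 KO, adjusted p = 0.0202). SAP18, a histone deacetylase and splicing cofactor, had 2 and 3, 56 and 106, and 28 reads, and rose in the CFIm59 KO by 2.27 ± 0.36 (adjusted p = 0.000587). In all 3 genes the CFIm68 KO lines were lowest. RAB11A, whose pair had shifted to distal in the CFIm68 KO, had 3.19% and 3.81% of these reads further downstream in the CFIm68 KO lines, 42.6% and 34.6% in the CFIm59 KO lines, and 22.0% in the control (log2 change 1.11 ± 0.31 in the CFIm59 KO, adjusted p = 0.0266). LRPPRC had 15.9% and 18.3%, 54.1% and 63.8%, and 42.2% there (log2 change 1.01 ± 0.32 in the CFIm59 KO, adjusted p = 0.0437).

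Upstream reads could be tested in 647 close pairs. They rose in 70 and fell in 7 in the CFIm68 KO (10.8% and 1.08%), with 11.5% and 0.818% over all 3300 tested genes. In the CFIm59 KO they rose in 5 and fell in 0 by edgeR, with 0.667% and 0.636% over all, and DESeq2 called 0 in either direction, as did edgeR for rises without either CFIm59 KO line. Between the knockouts 140 were higher and 35 lower in the CFIm68 KO, with 21.6% and 3.64% over all; without CFIm59 KO lines 1 and 2 these were 88 and 19, and 79 and 18. RMND5A, a subunit of a ubiquitin ligase, had 153 and 113 upstream reads in the CFIm68 KO lines, 23 and 16 in the CFIm59 KO lines, and 48 in the control (log2 change 3.05 ± 0.46 in the CFIm68 KO, adjusted p = 6.63e-09). OGT, the enzyme that attaches N-acetylglucosamine to proteins, had 206 and 158, 27 and 27, and 78 (log2 change 2.84 ± 0.41, adjusted p = 1.23e-09). XRN1, the cytoplasmic exonuclease, had 57 and 52, 12 and 15, and 29 reads there. In LAMP2 the upstream share of upstream and pair reads fell, at 13.8% and 12.7% in the CFIm68 KO lines, 70.2% and 61.7% in the CFIm59 KO lines, and 49.3% in the control (log2 change -2.66 ± 0.41, adjusted p = 2.33e-08). Its upstream reads numbered 103 and 55, 59 and 66, and 132, and its pair reads 644 and 379, 25 and 41, and 136, with expression higher in the CFIm68 KO (log2 change 1.08 ± 0.26, adjusted p = 0.00885). WNK1, whose pair had shifted to distal, fell as well (log2 change -1.40 ± 0.49, adjusted p = 0.0411), though not by DESeq2. Downstream of its pair WNK1 had 108 and 78 reads in the CFIm68 KO lines, 145 and 184 in the CFIm59 KO lines, and 153 in the control. Its pair reads were 369 and 245, 120 and 144, and 184, so downstream reads were fewest relative to the pair in the CFIm68 KO lines.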

How the data were processed

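Poly(A) site reads of 5 HEK293T libraries were analysed. The authors deposited raw read counts per poly(A) site, with each site's gene, strand, position and class per the file headers. TopHat2 2.1.0, deepTools 2.4 and hg19 are named in the submitters' processing notes, with no role; the sources used here give no site caller, internal priming filter or annotation release. The 290072 entries held 272248 sites; the 17824 repeated listings held 0 reads, and the first was used. No 2 sites on a strand were closer than 41 nt. The labels give the read length in 2 places that differ. Positions are printed as deposited.

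Pairs were taken as described in the report. Proximal and distal counts were fitted in edgeR 4.0.16 (R 4.3.3) by the quasi-likelihood test with library terms and an interaction of site and genotype, on all 5869 pairs and 5 libraries. Expression used gene sums, filterByExpr and TMM (14636 genes). Adjusted p-values are Benjamini-Hochberg, 2-sided, threshold 0.05; log2 values carry SE. Shares carry SD over 2 lines or a 95% Wilson interval; without molecular identifiers these intervals and the limit from 0 reads (3 reads) cover counting error only. Scripts were tested on simulated counts. Alternatives were DESeq2 1.42.0, other read minimums (100 and 20; 1), last exon sites only, minimum distances, other scaling, no filter, and leaving out each KO line.

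Named genes were, per site contrast, the 12 with the largest difference each way among called pairs with 50 or more reads per library whose lines did not overlap the other group. Per expression contrast they were the 6 with the largest log2 change each way and a mean count of 20 or more; the 6 members with most reads, up to 4 per list, and pairs called in opposite directions were added. Most symbols of clone-named and non-coding transcripts were left out. The members, gene lists and rules were chosen with earlier results of these data known. Site sequences were not analysed here. Values of 2 called pairs are not reported here.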

Additional observations from a re-analysis of the deposited data

Results flagged for a closer look

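RPL37A was picked out because its site use moved 1 way in both CFIm68 KO lines and the other way in both CFIm59 KO lines relative to the control. Its proximal share was 97.6% and 97.1% in the CFIm68 KO lines, 99.9% and 99.9% in the CFIm59 KO lines, and 99.3% in the control. The log2 difference of the proximal to distal ratio between the knockouts was -4.58 ± 0.44 (SE). The gene was chosen for these opposite changes, so the difference is a description and no test of it is given. The distal site, 161 nt downstream, held few reads in every library, and the part of processed gene copies in these reads was not tested.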

How the results depend on the processing

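No close pair or gene called above was called in the opposite direction under any alternative run. The larger of the 2 counts of calls did switch sides. In the CFIm68 KO, 49 pairs to proximal and 44 to distal became 5 and 7 by DESeq2. Between the knockouts, 134 and 116 became 48 and 65. Of the values recomputed for named genes, 2590 stayed on their side of the threshold, 127 lost their call and 27 gained one. In site use, DESeq2 called 5 close pairs to proximal and 7 in the other direction in the CFIm68 KO, 3 and 1 in the CFIm59 KO, and 48 and 65 between the knockouts. With no read minimum beyond 1 read these counts were 20 and 20, 6 and 2, and 87 to proximal between the knockouts. With minimums of 100 and 20 reads, 23 moved to proximal in the CFIm68 KO, and 67 and 73 differed between the knockouts. Fewer pairs met these minimums, and the 49 of the 93 CFIm68 KO calls that could still be tested were all kept. With last exon sites only, 79 moved to proximal in the CFIm68 KO, and 19 and 7 were called in the CFIm59 KO. All 93 CFIm68 KO calls were kept there, and 40 of the 93 were kept with no read minimum beyond 1 read. These 3 settings choose the pairs anew, so their counts are not out of the same 1075 pairs. With pairs 100 nt or more apart, 7 and 2 were called in the CFIm59 KO, and 73 to distal between the knockouts; this setting was chosen after seeing the data. Merging sites within 24 nt could change nothing, since no sites were closer than 41 nt, and is not counted.

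Leaving out each KO line in turn gave 32 to 61 proximal and 37 to 53 distal calls in the CFIm68 KO, 7 to 24 and 2 to 7 in the CFIm59 KO, and 78 to 140 and 70 to 104 between the knockouts. The cause of these moves was not tested.

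In expression, DESeq2 called 4 genes higher and 12 lower in the CFIm68 KO, 16 and 43 in the CFIm59 KO, and 49 and 60 between the knockouts. Leaving out each line gave 14 to 16 higher and 37 to 39 lower, 32 to 70 and 70 to 154, and 63 to 107 and 74 to 105. Downstream of the pair, DESeq2 called 1 higher and 46 lower in the CFIm68 KO, 0 and 0 in the CFIm59 KO, and 7 higher between the knockouts. Leaving out each line gave 2 to 8 and 53 to 91, 25 to 35 and 0 to 1, and 7 to 13 higher between the knockouts. Upstream, DESeq2 called 17 and 1 in the CFIm68 KO, 0 higher in the CFIm59 KO, and 71 and 15 between the knockouts. Leaving out each line gave 53 to 101 and 4 to 11, 0 to 8 and 0 to 3, and 79 to 147 and 18 to 34.

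The lines share only a number across genotypes. With that number as a replicate block, possible only between the knockouts, 140 close pairs were called to proximal and 123 to distal, 140 genes were higher and 131 lower in expression, and 12 and 172 genes changed downstream and 139 and 36 upstream. Deviations of same-numbered lines had correlations of -0.0213 in expression and 0.0297 in site use. The control has 1 library, so no alternative could leave it out, and low read counts limit the pairs near the read minimum.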
